A study of Homo sapiens with 9 samples.

Results

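Ribosome-protected mRNA fragments were compared for 10 immediate-early and short-lived regulators, JUN, JUNB, JUND, FOS, FOSL2, MYC, EGR1, IER2, IER3 and MCL1, in Huh-7 cells, an established line from a human hepatocellular carcinoma. The members were taken by gene symbol from the deposited tables of PF8503 and PF846. Of the 10 members, 8 were among the 9157 transcripts listed with PF8503 and 7 were among the 8839 listed with PF846. FOS and IER3 were listed in neither table, and FOSL2 was listed with PF8503 only. The tables keep transcripts above a minimum read count, so an absent member was not analysed here, and its absence says nothing of a change.

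Cells received 1.5 μM PF8503 (PF-06378503 in the labels), 1.5 μM PF846 (PF-067446846 in the labels) or vehicle, 0.5% DMSO, each for 1 hr, with 3 biological replicates per condition and 9 libraries in all. PF8503 and PF846 are related small molecules that stall the ribosome on a small group of nascent proteins. All lysates were made in cycloheximide, which arrests elongating ribosomes. Judged by the library names, the conditions never shared a sequencing lane, and an effect of the lane cannot be told apart from one of the condition. The line is a cancer-derived hepatocyte model, and a footprint count rises with mRNA level as well as with translation, which these libraries do not separate.

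Immediate-early genes are transcribed within minutes of a signal, without new protein synthesis, and their mRNAs and proteins decay quickly. Many of these mRNAs carry AU-rich elements that recruit decay factors, and inhibitors of elongation such as cycloheximide are known to superinduce them, in part through MAP kinases that respond to stalled or colliding ribosomes. JUN, JUNB and JUND form AP-1 transcription factors with FOS and FOSL2, EGR1 is a zinc finger factor of the serum response, IER2 is a nuclear protein of the same early wave, MYC drives growth genes, and MCL1 protects mitochondria from BAX and BAK1. The short half-lives make these genes candidates to change within 1 hr, which is the question put to the tables here.

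The deposited values are means over the libraries of a condition. Whole read counts of single libraries could be recovered from the digits of these means for 9034 transcripts with PF8503 and 8751 with PF846, including every listed member. The recovered libraries held 4204321 to 12990529 reads over these transcripts. They carry no replicate number, and are named a, b and c: vehicle libraries from deepest to shallowest, and each compound library by the vehicle library whose deviations from the condition mean it followed over all transcripts (Pearson's r of 0.36 to 0.62). Libraries sharing a letter are called a set. Values of single libraries are given on a common scale of 9 libraries, and p-values measure only the spread between these libraries. Of the hepatocyte markers checked, 11 of 11 were listed, among them ALB and AFP. Of the 10 leukocyte, endothelial and fibroblast markers only LYZ, at an authors' vehicle mean of 7769 normalized reads, and PECAM1, at 170, were listed.

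Per codon, JUN had the highest mean occupancy of the members in vehicle, and FOSL2 the lowest. JUN had 6.08 ± 0.86 normalized reads per codon (SD, n = 3), taken from the PF8503 table over its coding sequence less 10 codons at each end, and its lowest library lay above the highest of MCL1, the next member by mean, but 2 of its libraries lay below the highest of IER2, at 5.98. MCL1 had 4.85 ± 0.48 (SD, n = 3), IER2 4.49 ± 1.33 (SD, n = 3) and MYC 4.40 ± 0.44 (SD, n = 3) normalized reads per codon, and neighbours among these overlapped. JUND, at 2.11 ± 0.045 (SD, n = 3), and JUNB, at 1.97 ± 0.76 (SD, n = 3) normalized reads per codon, also overlapped. EGR1 followed at 0.61 ± 0.10 (SD, n = 3) and FOSL2 at 0.32 ± 0.060 (SD, n = 3), each below every library of the member before it. Where the authors counted from a later codon these levels are too low. The length of MYC is that of the longer form in GENCODE version 44, and if the authors used a shorter form its level would be higher, so its order against IER2 is not settled.

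The members' coding sequences are rich in G and C. In the GENCODE version 44 annotation of GRCh38, JUN (chr1:58780791-58784047, minus strand), JUNB (chr19:12791486-12793315, plus strand) and JUND (chr19:18279694-18281622, minus strand) each consist of 1 exon. EGR1 (chr5:138465479-138469303, plus strand) and IER2 (chr19:13150411-13154911, plus strand) have 2 exons each, FOSL2 (chr2:28392858-28417317, plus strand) has 4, and MCL1 (chr1:150574558-150579610, minus strand) has 3. Coding GC content of the 7 members in both tables ran from 58.7% for MYC to 73.3% for JUND, against a median of 50.8% over all transcripts. Despite their shared DNA-binding region, JUN and JUNB had no stretch of 28 bases, the length of a footprint, in common with the canonical coding transcript of another gene. For JUND 99.4% and for EGR1 99.7% of such stretches were unique, EGR1 sharing a few with EGR4.

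Promoter sequences of RefSeq on GRCh38.p14 were available for 7 of the 10 members, all but MYC, IER3 and MCL1. The 250 bases before the start are printed, 5′ to 3′ on the coding strand, for the 3 members with the widest spread between libraries, EGR1, JUNB and IER2, and for JUND, a member of the same family whose vehicle libraries did not spread. Capitals mark the CArG box, bound by serum response factor, and the core TGACG of the cAMP response element on either strand, alone or within the full element TGACGTCA.
EGR1, chr5:138465229-138465478, plus strand: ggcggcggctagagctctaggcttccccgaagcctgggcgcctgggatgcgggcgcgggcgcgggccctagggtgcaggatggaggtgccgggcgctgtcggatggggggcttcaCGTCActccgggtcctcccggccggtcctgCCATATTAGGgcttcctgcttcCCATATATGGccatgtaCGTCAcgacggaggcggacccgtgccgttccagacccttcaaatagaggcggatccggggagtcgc
JUNB, chr19:12791236-12791485, plus strand: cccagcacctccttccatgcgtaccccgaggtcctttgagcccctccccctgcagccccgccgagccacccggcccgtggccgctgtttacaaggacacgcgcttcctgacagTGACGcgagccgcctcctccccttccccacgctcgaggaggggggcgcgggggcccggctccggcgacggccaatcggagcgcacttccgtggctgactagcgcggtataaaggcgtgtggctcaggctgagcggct
IER2, chr19:13150161-13150410, plus strand: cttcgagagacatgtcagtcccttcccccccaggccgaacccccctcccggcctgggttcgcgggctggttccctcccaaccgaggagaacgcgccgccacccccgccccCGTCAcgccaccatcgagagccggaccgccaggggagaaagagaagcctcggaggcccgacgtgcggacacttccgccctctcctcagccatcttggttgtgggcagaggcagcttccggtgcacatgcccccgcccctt
JUND, chr19:18281623-18281872, minus strand: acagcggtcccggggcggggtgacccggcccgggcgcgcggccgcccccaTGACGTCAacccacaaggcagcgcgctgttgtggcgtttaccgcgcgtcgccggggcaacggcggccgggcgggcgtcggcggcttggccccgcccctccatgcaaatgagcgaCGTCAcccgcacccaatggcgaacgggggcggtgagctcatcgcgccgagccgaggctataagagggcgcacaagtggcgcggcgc
Within these 250 bases, CArG boxes were found only in EGR1 among the 7, which holds 2, against 1.16% of 35116 promoters with at least 1. Bases further upstream were not searched, so a member without a box here may hold one there. The full element TGACGTCA was found only in JUND, and in 1.65% of all promoters. TGACG on either strand, which the full element contains, was in 7 of 7 member promoters, against 21.2% of all promoters and 29.4% of the 10782 with a GC content in the members' range of 62.0% to 74.8%. The AP-1 site TGANTCA, found in 6.57% of promoters, was in none of the 7 windows. These letters describe the windows and are no evidence of binding.

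No member passed the test between a compound and vehicle. The share of transcripts that passed an adjusted p of 0.05 in limma, fitted to log2 normalized reads, was 0.432% with PF8503, or 39 transcripts, all lower in this fit, and 0.24% with PF846, or 21 transcripts, all lower in this fit, and none of the members was among them. Over the 22 member contrasts of the 3 comparisons below, the lowest adjusted p in limma was 0.999, and 0 had an unadjusted p under 0.05. Among all transcripts, 3.06% had such an unadjusted p with PF8503, 1.58% with PF846 and 2.35% between the compounds, so it was rare throughout. With the set as a factor, chosen after the data were seen, 3 of the 22 had an unadjusted p under 0.05 in limma and 0 an adjusted one. The 3 were JUNB with PF846, and JUNB and JUND between the compounds. In that setting the shares among all transcripts were also larger, 9.39%, 5.20% and 8.45% in the same order. The sets were matched by correlation over these same libraries, so p-values from that setting may be too low. In every comparison of every member the ranges of the conditions overlapped. Among all 8518 transcripts with 9 libraries, the ranges did not overlap in 6.18% between PF8503 and vehicle, in 4.72% between PF846 and vehicle and in 5.73% between the compounds, so overlap was also the usual case. A simpler description counts ratios of the deposited means past 0.25 on the log2 scale. With PF8503, 3.79% of transcripts were higher and 4.23% were lower by this measure, and 0 of 8 members passed it in either direction. With PF846, 1.66% were higher and 2.13% were lower, and of 7 members 1 passed, JUNB, which was lower.

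**Figure D1:**
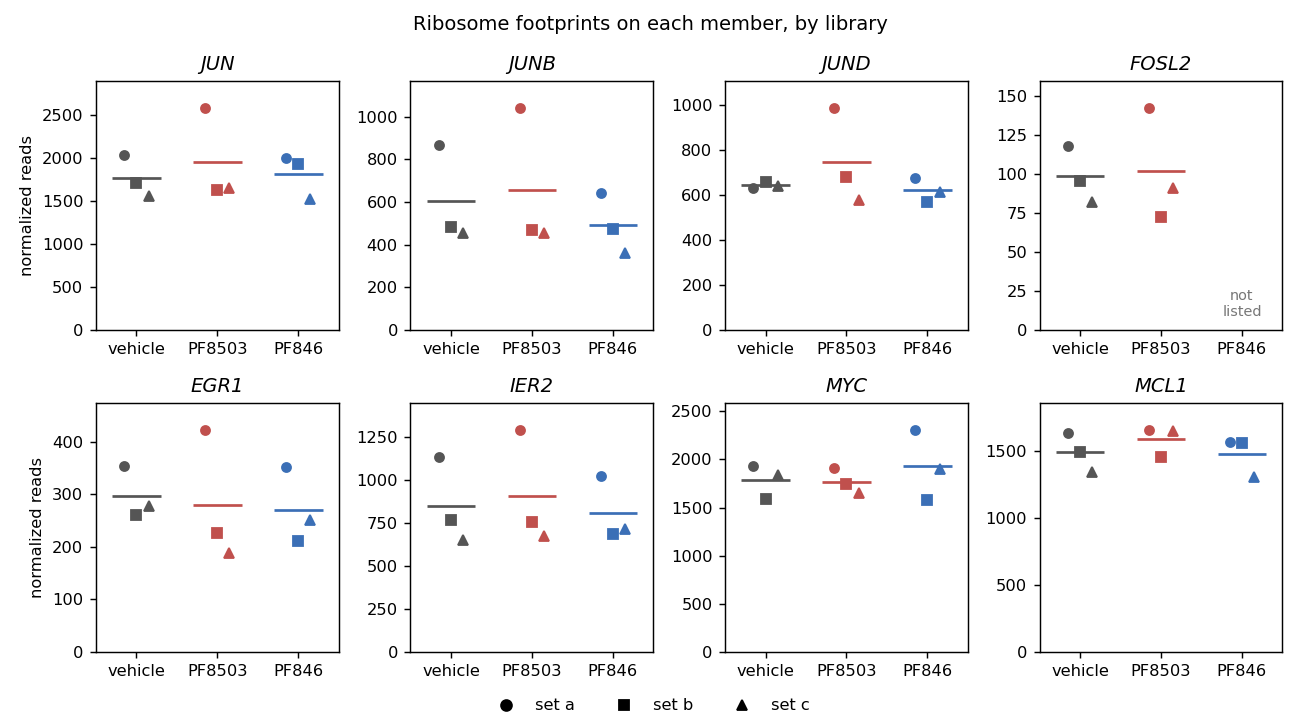
Normalized reads (vertical axes, from 0) of the 8 listed members in each library of vehicle, PF8503 and PF846; circles, squares and triangles are sets a, b and c, and horizontal lines are means of 3 libraries. The ranges of the conditions overlap for every member, and in JUNB, EGR1 and IER2 the library of set a stands highest in each condition.

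Among the AP-1 members, JUNB carried the largest ratio and also the widest spread. JUNB, which pairs with FOS proteins and often opposes JUN, had 869, 484 and 454 normalized reads in vehicle libraries a, b and c, 1043, 471 and 452 with PF8503, and 641, 471 and 358 with PF846. Library a stood apart from the other two in vehicle and with PF8503, and less so with PF846. The ratio of the deposited means was -0.30 on the log2 scale with PF846, just past the 0.25 mark and lower than for all but 1.13% of transcripts, and 0.12 with PF8503. The limma difference was -0.27 ± 0.24 (SE) with PF846, with a 95% interval of -0.81 to 0.26, and 0.07 ± 0.32 with PF8503. Leaving out vehicle library a alone moved the difference with PF846 to 0.02, leaving out PF846 library a alone moved it to -0.49, and over sets b and c it was -0.19. Set against the vehicle library of its own set, JUNB was lower with PF846 by -0.44, -0.04 and -0.34 on the log2 scale in sets a, b and c. With the set as a factor, a setting chosen after the data were seen, the limma difference was -0.27 ± 0.080 (SE). Its 95% interval was -0.43 to -0.11 and its adjusted p 0.156. The sets were matched by correlation over these same libraries, so this SE may be too small and the interval too narrow.

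JUN, the main partner of FOS in AP-1, had 2039, 1702 and 1554 normalized reads in vehicle libraries a, b and c, 2585, 1628 and 1647 with PF8503, and 2000, 1926 and 1516 with PF846. PF8503 library a was the highest of all and the others lay within or close to the vehicle range. The limma difference was 0.12 ± 0.17 (SE) with PF8503 and 0.04 ± 0.12 with PF846.

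JUND, the AP-1 member with the steadiest expression in most cells, had 632, 658 and 640 normalized reads in vehicle libraries a, b and c, 988, 681 and 575 with PF8503, and 675, 570 and 614 with PF846. The vehicle libraries were nearly equal, whereas those with PF8503 lay on both sides of them. The ratio of deposited means with PF8503 was 0.22, the closest of any member to the 0.25 mark without passing it, and the limma difference was 0.18 ± 0.17 (SE). Without PF8503 library a it was -0.04. With PF846 the limma difference was -0.06 ± 0.093 (SE).

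FOSL2, a FOS protein of slower kinetics, was the least occupied member, with 153, 102 and 65 reads in vehicle libraries a, b and c and 177, 77 and 63 with PF8503. Divided by the size factors of the PF8503 table, these gave 118, 95.4 and 82.1 normalized reads with vehicle and 143, 72.4 and 91.1 with PF8503. Library a was again the highest in both conditions. The limma difference was 0.01 ± 0.25 (SE), with a 95% interval of -0.54 to 0.55.

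EGR1, which is induced through serum response factor at CArG boxes such as those printed above, had 353, 260 and 277 normalized reads in vehicle libraries a, b and c, 423, 227 and 189 with PF8503, and 352, 210 and 250 with PF846. The library of set a was the highest in each condition, and libraries b and c were lower with either compound than with vehicle. The limma difference was -0.16 ± 0.26 (SE) with PF8503 and -0.15 ± 0.18 with PF846. Over sets b and c alone, a choice made after the data were seen, the difference with PF8503 was -0.37 ± 0.14 (SE). The 95% interval was -0.69 to -0.05, and the p in limma was 0.027 unadjusted and 0.999 adjusted. Without PF8503 library a the difference with PF8503 was -0.50, with an interval of -0.85 to -0.16. The p in limma was 0.0088 unadjusted and 0.609 adjusted. Without PF846 library a the difference with PF846 was -0.36, with an interval of -0.69 to -0.03. With any other single library left out, the interval for either compound against vehicle included 0. The 95% intervals of EGR1 over all libraries ran from -0.73 to 0.40 with PF8503 and from -0.55 to 0.24 with PF846.

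IER2, the early-wave nuclear protein, had 1134, 766 and 653 normalized reads in vehicle libraries a, b and c, 1294, 754 and 673 with PF8503, and 1027, 687 and 717 with PF846. Library a was the highest in each condition, by 1.46-fold to 1.81-fold over the mean of libraries b and c on the log scale. The limma difference was 0.07 ± 0.25 (SE) with PF8503 and -0.06 ± 0.20 with PF846, both smaller in size than the excess of library a, 0.55 to 0.86 on the same scale.

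MYC and MCL1, whose proteins are degraded rapidly by the proteasome, had the lowest SD between libraries when pooled over the conditions, though JUND varied less in vehicle and with PF846. MYC had 1928, 1585 and 1840 normalized reads in vehicle libraries a, b and c, 1914, 1742 and 1652 with PF8503, and 2308, 1577 and 1906 with PF846. PF846 library a was the highest, and the libraries with PF8503 lay within the vehicle range. The limma difference of MYC was -0.01 ± 0.11 (SE) with PF8503, with a 95% interval of -0.24 to 0.23, and 0.10 ± 0.13 with PF846, with an interval of -0.18 to 0.39.

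MCL1 had 1642, 1496 and 1348 normalized reads in vehicle libraries a, b and c, 1662, 1457 and 1655 with PF8503, and 1572, 1566 and 1311 with PF846. The conditions interleaved throughout. The limma difference was 0.09 ± 0.11 (SE) with PF8503, with a 95% interval of -0.14 to 0.33, and -0.01 ± 0.10 with PF846, with an interval of -0.24 to 0.21. For MYC and MCL1 these intervals leave out changes of more than 0.39 on the log2 scale in either direction, whereas for JUNB they reach from -0.81 to 0.78.

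**Figure D2:**
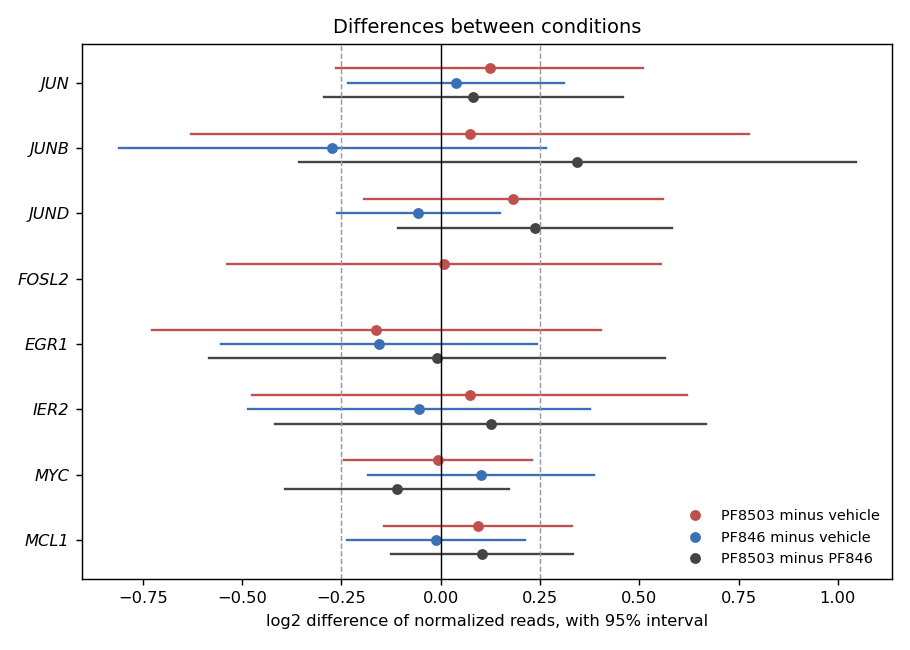
Differences in log2 normalized reads (horizontal axis) from limma, with 95% intervals, for PF8503 minus vehicle, PF846 minus vehicle and PF8503 minus PF846; dashed lines mark 0.25 in either direction. Every interval includes 0, and that of JUNB is the widest in each of the 3 comparisons.

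PF8503 and PF846 were given at the same dose and for the same time, and 7 members could be compared directly. The compounds differed at an adjusted p under 0.05 in 0.0352% of transcripts, or 3, all lower with PF8503, and in 0 of 7 members. The largest difference was that of JUNB, 0.34 ± 0.32 (SE) higher with PF8503, with a 95% interval of -0.36 to 1.04. With the set as a factor the adjusted p of JUNB in limma was 0.177. JUND followed at 0.24 ± 0.16 (SE), with an interval of -0.11 to 0.58. For MCL1 the difference was 0.10 ± 0.11 (SE), with an interval of -0.12 to 0.33, and for MYC it was -0.11 ± 0.13, with an interval of -0.39 to 0.17. For JUN, EGR1 and IER2 the intervals ran from -0.29 to 0.46, from -0.58 to 0.56 and from -0.42 to 0.67. The comparisons of the compounds with vehicle share the vehicle libraries, so their values are not independent of each other.

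The spread between libraries of the same condition was wide for most members. JUNB had a pooled SD within conditions of 0.55 on the log2 scale, 4.08 times the median of the 500 transcripts nearest in mean and above 99.8% of them. The counting SE was at most 0.090 in any JUNB library. The pooled SD of IER2 was 0.42, above 99.4% of its 500 nearest transcripts, and that of EGR1 was 0.43, above 98.4%. JUN had 0.28 (above 94.8%), FOSL2 0.40 over the 6 libraries of its table (above 92.4%), and JUND 0.24 (above 90.8%). MYC, at 0.19 (above 77.2%), and MCL1, at 0.13 (above 56.8%), were nearer to other transcripts of their level.

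**Figure D3:**
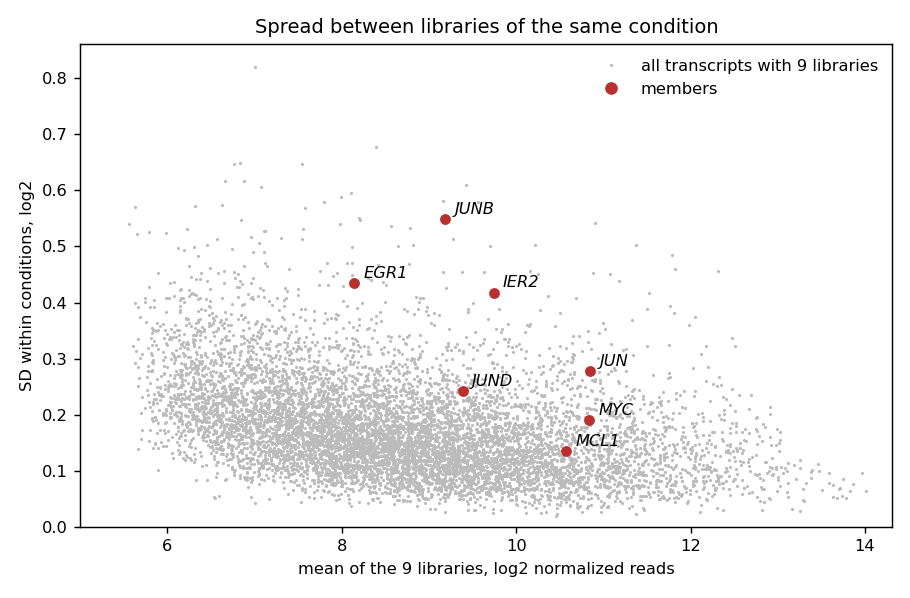
Pooled SD within conditions, in log2 normalized reads (vertical axis), against the mean of 9 libraries in log2 normalized reads (horizontal axis), for all 8518 transcripts with 9 libraries (grey) and the 7 members among them (red). JUNB, IER2 and EGR1 lie along the upper edge at 0.55, 0.42 and 0.43, and MCL1 lies within the cloud at 0.13.

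This spread had a shared direction. JUN, JUNB, EGR1, IER2, MYC and MCL1, 6 of 7 members, were highest in set a in vehicle, with PF8503 and with PF846, which was so for 19.6% of all 8518 transcripts. Averaged over the conditions, library a exceeded the mean of b and c on the log2 scale by 0.90 for JUNB, 0.70 for IER2 and 0.68 for EGR1, ranks 4, 26 and 29 of 8518 transcripts. The excess was 0.40 for JUN, 0.27 for JUND, 0.25 for MYC and 0.15 for MCL1. JUND was the exception in vehicle, where library a was the lowest. Coding GC content moved with this pattern: of transcripts with a coding GC content of at least 60%, 51.5% were highest in set a throughout, against 2.69% of those below 50%. Within the members' own range of GC content the share was 50.3%. Its part in the members' values was not tested. Set a held the deepest library of each condition, and the sets were named from the data, so no test of them is given.

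**Figure D4:**
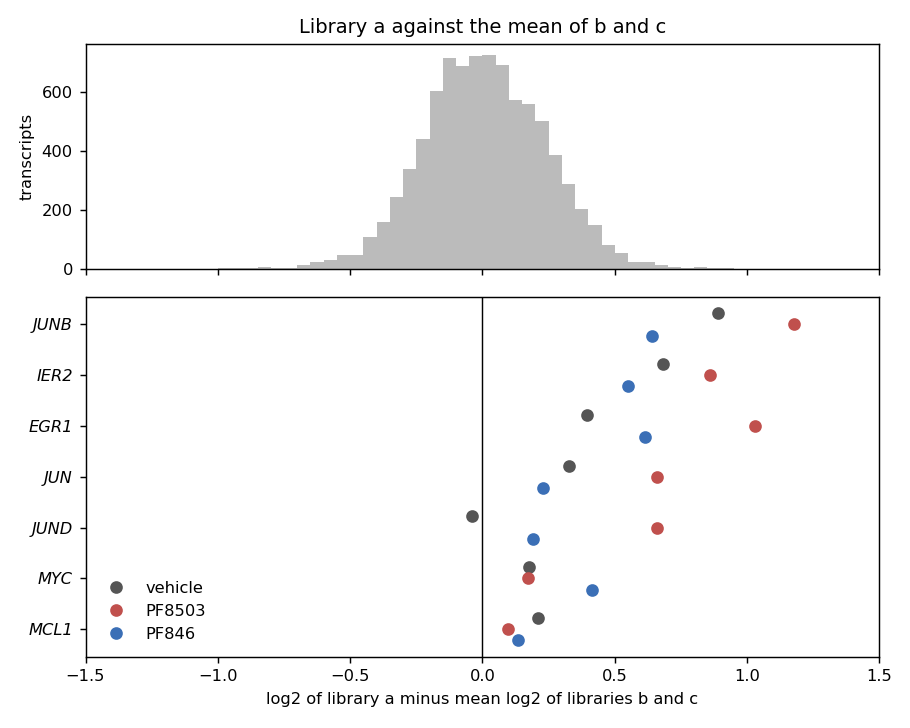
Log2 normalized reads of library a minus the mean of libraries b and c (horizontal axis): above, the average over the 3 conditions for all 8518 transcripts; below, each condition for the 7 members. All points of JUNB, IER2 and EGR1 lie between 0.40 and 1.18, whereas the median of all transcripts is at 0.0024.

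No gene in the wider lists of partners and short-lived regulators passed the test with either compound. Over 6 lists of 150 genes, 108 were listed with PF8503, of which 9 were higher and 6 lower by 0.25 or more, and 100 with PF846, of which 2 were higher and 1 lower. None of these passed the adjusted p of 0.05 in limma. Among all transcripts, 3.79% were higher and 4.23% lower by 0.25 or more with PF8503, and 1.66% and 2.13% with PF846. These shares are the background for the counts of the single lists below. The median log2 ratio over the lists was 0.05 with PF8503 and -0.0033 with PF846, against 0.01 and 0.00086 over all transcripts.

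Of the AP-1 and ATF partners, 8 of 17 were listed with PF8503 and 6 with PF846, with median log2 ratios of 0.07 and -0.11. MAFK, a small MAF protein, had the largest ratio of all lists with PF8503, 0.69, from authors' means of 40.6 and 65.5 normalized reads (limma adjusted p of 0.572). ATF2, a target of stress kinases, had the lowest ratio with PF8503, -0.23. ATF3, the stress-induced ATF gene, stood at -0.31 with PF846 and NFE2L1 at 0.06.

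Of 38 other immediate-early genes, 26 were listed with each compound. With PF8503 the ratios ran from -0.15 for CCNL1, a cyclin of RNA processing, to 0.36 for IER5, and with PF846 from -0.23 for SRF, the serum response factor itself, to 0.34 for KLF9. In each case 1 gene was past 0.25. The medians were 0.03 and -0.02.

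The MYC network gave 14 of 17 genes with PF8503 and 13 with PF846. Past 0.25 were 2 genes, both lower with PF8503, and the medians were 0.05 and 0.03. MXD4, a repressor that competes with MYC for MAX, was lowest with PF8503 at -0.35 and MLXIP highest at 0.21. With PF846 the range was -0.19 for MLXIPL, the carbohydrate response factor, to 0.13 for MLX, the partner of MLXIPL. Of the BCL2 family and its deubiquitinase USP9X, which stabilizes MCL1, 9 of 18 were listed with PF8503 and 7 with PF846. Here too 2 genes were past 0.25, both lower with PF8503, and the medians were -0.08 and -0.02. USP9X had the lowest ratio with either compound, -0.48 with PF8503 and -0.16 with PF846, and a limma adjusted p of 0.448 with PF8503. BAK1 was highest with PF8503 at 0.11 and BCL2L1 with PF846 at 0.01.

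Of the MAPK relays and serum response factors, 19 of 22 were listed with each compound. The medians were 0.03 and 0.0081, and 1 gene was past 0.25 with each. ELK1, a cofactor of SRF, had the highest ratio with both, 0.44 with PF8503 and 0.30 with PF846, from authors' vehicle means of 85.4 and 78.2 normalized reads. The lowest were RPS6KA1, a kinase downstream of ERK, at -0.18 with PF8503 and MAPK3, ERK1, at -0.18 with PF846. The list of AU-rich mRNA decay and feedback regulators had medians of 0.09 with PF8503 and 0.06 with PF846 over 32 and 29 listed genes of 38. With PF8503, 5 were higher and 2 lower by 0.25 or more, against 3.79% and 4.23% of all transcripts, and with PF846 none. ZFP36, which binds AU-rich elements and promotes decay, was highest with PF8503 at 0.32, and SPRED1, an inhibitor of ERK signalling, lowest at -0.53. With PF846 the range was -0.16 for NFKBIE to 0.20 for BCL3, both regulators of NF-κB.

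**Figure D5:**
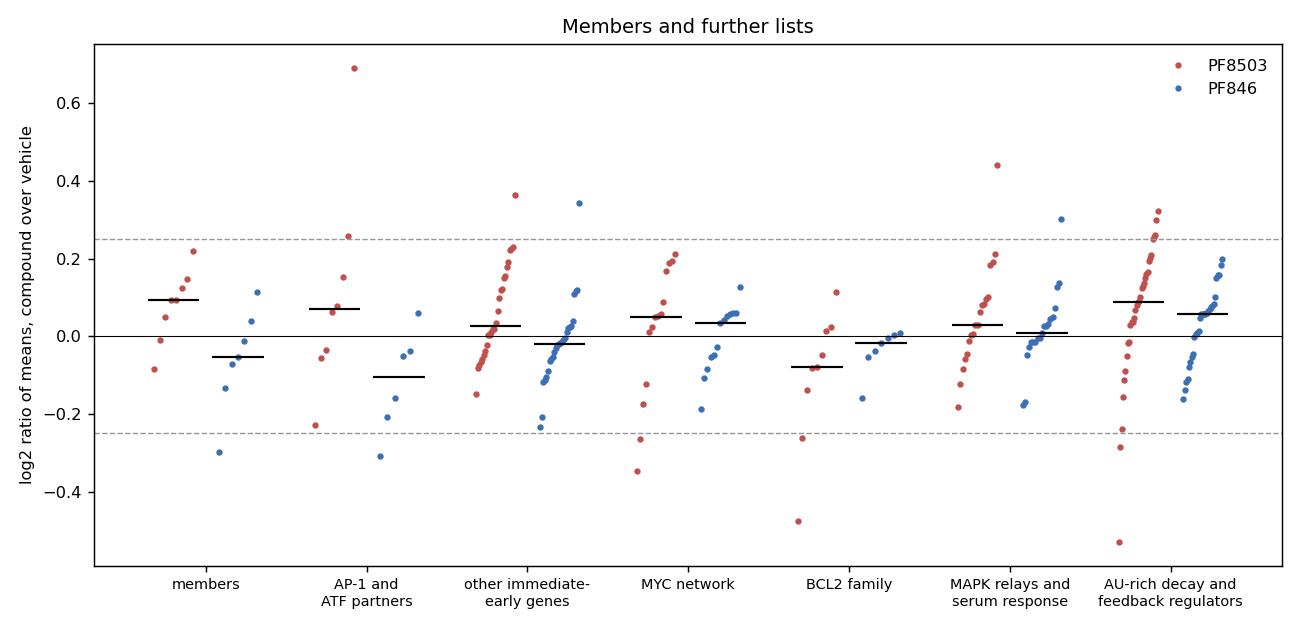
Log2 ratio of the deposited means, compound over vehicle (vertical axis), for the members and the 6 further lists; each point is a gene, black bars are medians and dashed lines mark 0.25 in either direction. Medians lie between -0.11 and 0.09, and single genes past the dashed lines occur in both directions.

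The lists were also compared between the sets of libraries, as a description. Of the AU-rich decay and feedback regulators, 19 of 29 were highest in set a in all 3 conditions, and of the other immediate-early genes 11 of 26, against the 19.6% of all transcripts given above. The MAPK relays gave 3 of 19, the MYC network 3 of 12, the BCL2 family 2 of 7 and the AP-1 and ATF partners 2 of 6. Beside JUNB, IER2 and EGR1, the highest list genes in set a were MAFF at 1.63-fold, CXCL1 at 1.58-fold and NFKBIA at 1.57-fold over the mean of sets b and c. GC content was not matched in these counts.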

How the data were processed

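The libraries were ribosome footprints of Huh-7 cells. Per the labels and the study's methods, the authors clipped adapters (FASTX), discarded reads of ribosomal RNA, aligned with Bowtie to canonical coding transcripts of GRCh38 (GENCODE version 24), kept uniquely placed reads and counted P sites 3′ of DMax, the codon of largest cumulative difference between compound and vehicle, where that difference had a Z score of 2 or more, or else past codon 10; the last 10 codons were left out. Transcripts with over 30 counts were kept and scaled by size factors. Versions are not given in the sources used here. Such counting removes codons in which a stalled ribosome piles up. What the authors deposited is a signal: the average, over the 3 libraries of vehicle, of the compound or of both together, of counts divided by size factors. The tables' columns of fold changes, their log2, p-values and adjusted p-values are the authors' comparisons and were not used.

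A deposited mean is a whole-number combination of 3 steps, each 1 over 3 size factors. The steps were found from integer relations among 40 values per column (lattice reduction), and the counts by exhaustive search. In each column at least 98.8% of transcripts were solved, each with a single solution, and vehicle counts recovered separately from the 2 tables were identical for 8518 of 8651 transcripts (98.5%); for the others another region was counted. Size factors recomputed from the counts matched the steps within 0.038%. Transcripts not solved were few but mostly abundant, the solved ones holding 76.6% to 83.4% of the summed means of a column, and no member was among those not solved. Which numbered replicates entered the tables is not certain, since the authors' scripts number them differently from the labels. Intervals of single counts cover counting error only.

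Tests were limma 3.58.1 in R 4.3.3 (lmFit and eBayes with trend) on log2(normalized count + 0.5), Benjamini-Hochberg over all transcripts of a fit; differences are on this scale. PF8503 and PF846 were each fitted against vehicle in their own table, and against each other over 9 libraries and the 8518 transcripts with the same region. These steps were checked on simulated data. The members and lists were chosen with earlier results of these data known. Named were all members and, from each list, the genes with the highest and lowest ratio for each compound. Alternatives were a mark of 0.5, centring on the median, pseudocounts of 1 and 5, a mean of at least 100, same-region transcripts, no variance trend, 1 fit over 9 libraries, other lengths, and each library left out; the set as a factor and sets b and c alone were added after the data were seen. Annotation and coding GC came from GENCODE version 44, matched by symbol for 94.9% of transcripts. Python 3.11.15, numpy 2.4.6, pandas 2.3.3, sympy 1.14.0, numba 0.67.0 and matplotlib 3.10.9 were used.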

Additional observations from a re-analysis of the deposited data

How the results depend on the processing

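No paired analysis was possible because the recovered libraries carry no replicate number of the labels. Sets of libraries found from their correlations served as a factor instead, an alternative chosen after the data were seen. The main fits hold no term for the set, so their intervals include the differences between sets. For JUNB with PF846 the SE was 0.24 in the main fit and 0.080 with the set as a factor. The latter may be too small, since the sets were matched on these same counts. In no fit run did a member pass the adjusted p of 0.05 in limma; over 299 values of members under the alternatives, the lowest adjusted p was 0.156 (JUNB with PF846, set as a factor) and 0.609 among the alternatives planned from the start. The sign changed in 40 of these values, 35 of them with 1 library left out. Over sets b and c alone, FOSL2 (-0.12), JUNB (-0.022) and JUND (-0.049) changed sign with PF8503, MCL1 (0.013) with PF846 and JUN (-0.061) between the compounds. With libraries left out in turn, differences with PF8503 ran from -0.10 to 0.24 for JUN, -0.26 to 0.22 for FOSL2, -0.50 to 0.076 for EGR1, -0.090 to 0.051 for MYC, -0.32 to 0.37 for JUNB, -0.21 to 0.30 for IER2 and -0.036 to 0.35 for JUND. Those with PF846 ran from -0.048 to 0.16 for JUN, -0.085 to 0.074 for MCL1, -0.36 to 0.012 for EGR1, -0.037 to 0.24 for MYC, -0.49 to 0.023 for JUNB, -0.24 to 0.17 for IER2 and -0.12 to 0.0025 for JUND. Between the compounds they ran from -0.14 to 0.20 for JUN, -0.35 to 0.23 for EGR1, -0.25 to 0.027 for MYC, -0.048 to 0.56 for JUNB and -0.16 to 0.31 for IER2. MCL1 and JUND between the compounds and MCL1 with PF8503 kept their sign in every fit run.

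The calls over all transcripts ranged from 20 to 46 with PF8503, 14 to 18 with PF846 and 1 to 6 between the compounds with libraries left out. With the set as a factor they were 149, 60 and 50, of which 22, 14 and 8 were higher, against 0 of the 39, 21 and 3 called without it. A single fit over 9 libraries gave 10 with PF8503 and 2 with PF846, no variance trend gave 1 between the compounds, and sets b and c alone gave 6 there. At a mark of 0.5, 0 members passed with PF846 and 2 list genes with PF8503 and 0 with PF846, 2 in all against 18 at 0.25; a mean of at least 100 left 1 list gene with PF846. The vehicle level of JUND was 1.98 reads per codon over all codons and 1.93 in the PF846 table, a change beyond its small SD. Other settings moved no count of members. The causes were not tested. FOSL2 and EGR1 had the fewest reads of the members, 63 to 602 per library. The counting SE was at most 0.18 for FOSL2 and 0.13 for EGR1, below their pooled SDs within conditions of 0.40 and 0.43.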

Other observations

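Most of the transcripts with the largest excess in set a were neither members nor in the lists. The 10 highest over all 8518 transcripts, named after their values were seen, were SLC16A3, a lactate transporter, at 2.03-fold, CEBPD, an acute-phase transcription factor, at 1.91-fold, IFITM3 at 1.89-fold, JUNB at 1.87-fold, CTU1 at 1.85-fold, LGALS3BP at 1.85-fold, IKBKE at 1.83-fold, and CXCL3, KISS1R and RELB at 1.78-fold each. These are values without a test, and the median transcript lay at 0.0024 on the log2 scale.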
